A study of Mus musculus with 12 samples.

Results

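The expression of 40 interferon-stimulated and MHC class I genes was followed in mouse kidney across acute kidney injury and deletion of ALR. The 40 genes were given as a list of symbols and all of them were found among the 55487 genes of the count table, of which 29160 had a count in at least 1 library. By role they fall into 2 RNA sensors, 4 transcription factors, 14 antiviral effectors, 5 members of the OAS family, 5 ubiquitin-like and ADP-ribose regulators, 6 interferon-inducible GTPases and 4 MHC class I genes. Interferons bind receptors at the cell surface and act through JAK kinases on transcription factors, STAT2 and IRF9 among them, which enter the nucleus and switch on their target genes. Type I and type III interferons act mainly through the interferon-stimulated response element (ISRE), and interferon gamma through the gamma-activated site (GAS). In the kidney, tubular, endothelial and resident immune cells all respond to interferon, and the products of the targets block viral replication or load peptides onto MHC class I molecules for CD8 T cells.

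The study asked how loss of ALR (gene symbol Gfer), a sulfhydryl oxidase of the mitochondrial intermembrane space, alters ischemia-reperfusion (I/R) injury. RNA was sequenced in 12 kidney libraries, 3 in each of 4 groups. Control mice carried ALR flox/flox without Cre (Ctrl, called WT in the labels), and knockout mice carried ALR flox/flox with Ggt1-Cre (PT-KO, ALR knockdown in the labels), so that all 4 groups share the floxed alleles. The Ggt1 promoter drives Cre in proximal tubular cells, and other cells of the kidney keep the gene. Mice were 6 to 8 weeks old on a mixed C57BL/6 background, and the Ctrl and PT-KO groups were labelled Sham. The Ctrl+I/R and PT-KO+I/R groups had 22 min of bilateral renal ischemia, with kidneys taken after 24 h of reperfusion. The labels name kidney cortex, and the summed level of 9 proximal tubule markers was 16090 to 19620 CPM (counts scaled to a common library total after TMM normalization) without I/R, whereas 5 collecting duct markers summed to 258 to 357 CPM.

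Library totals ranged from 12165089 to 23123693 counts. The group of Ctrl library 3 was read from the header of its column, because the titles of the Ctrl group carry the numbers 1, 2 and 4. Ctrl libraries 1 and 2 held the female transcript Xist at 1125 and 1207 CPM, against at most 0.491 CPM in the other 10 libraries, and had 0 counts of 4 Y-linked genes. Sex is therefore mixed in the Ctrl group, and comparisons with Ctrl were repeated with sex as a covariate, without 1 library at a time and on the male libraries alone. The last of these keeps 1 Ctrl library, which is then assumed to vary like the other groups. Because both female libraries are in Ctrl, the fit with sex as a covariate also sets the Ctrl level by library 3 alone. It is therefore no separate check from the male libraries alone in comparisons with Ctrl. Gfer itself was not lower in the libraries labelled as knockout. It stood at 12.7, 11.4 and 14.4 CPM in Ctrl, 9.96, 17.1 and 15.0 CPM in PT-KO, 15.3, 19.98 and 17.6 CPM in Ctrl+I/R and 21.6, 22.8 and 21.6 CPM in PT-KO+I/R. The study itself reported ALR expression in the kidney as decreased in PT-KO relative to control mice. Counts per gene cannot show whether the floxed exon was read, so that every direction below belongs to the libraries labelled PT-KO.

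Promoter sequence is shown first because the genes were assembled as targets of interferon. The letters let a reader see which of them hold an exact match to the core of a response element. RefSeq windows on GRCm38.p6, from 250 bases before to 50 bases after a start, were matched for 31 of the 40 genes in 37 windows. No window was matched for Dhx58, Mx1, Mx2, Rtp4, Oas2, Usp18, Parp9, Parp14 and Iigp1. The ISRE core was searched as 2 copies of GAAA with NN, any 2 bases, between them, and the GAS as TTCNNNGAA, on both strands. The ISRE core was present in 17 of the 31 genes (54.8%), against 3.99% of the 27025 genes with a window. GAS was present in 7 of the 31 genes (22.6%), against 9.55% of all genes with a window. The GAS letters may overlap an ISRE core, and a match is a description of the letters and no evidence of binding. The stretches below end before the start of transcription, are written 5′ to 3′ on the strand of the gene, and have ISRE cores in capitals on either strand, except for Irf1, where the capitals mark GAS. Isg15, Ifit1, Rsad2, Ifit3 and Ifit3b encode antiviral effectors, Igtp a GTPase and B2m the light chain of MHC class I.
Isg15 (chr4:156200845-156200926, minus strand): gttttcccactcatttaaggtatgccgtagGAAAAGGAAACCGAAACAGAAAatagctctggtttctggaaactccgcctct
Ifit1 (chr19:34640755-34640843, plus strand): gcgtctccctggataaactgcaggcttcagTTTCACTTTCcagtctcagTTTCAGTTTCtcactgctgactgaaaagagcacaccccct
Ifit3 (chr19:34583343-34583446, plus strand): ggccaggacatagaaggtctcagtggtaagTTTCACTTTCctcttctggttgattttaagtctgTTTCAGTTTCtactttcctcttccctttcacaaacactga
Ifit3b (chr19:34607739-34607842, plus strand): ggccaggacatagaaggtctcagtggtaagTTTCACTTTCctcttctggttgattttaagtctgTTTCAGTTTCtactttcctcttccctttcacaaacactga
Rsad2 (chr12:26456533-26456602, minus strand): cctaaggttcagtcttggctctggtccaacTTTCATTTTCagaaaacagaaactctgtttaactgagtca
Igtp (chr11:58199492-58199555, plus strand): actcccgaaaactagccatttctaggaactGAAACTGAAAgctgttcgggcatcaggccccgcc
B2m (chr2:122147518-122147587, plus strand): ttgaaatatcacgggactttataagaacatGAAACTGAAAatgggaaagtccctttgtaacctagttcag
Irf1 (chr11:53769894-53769962, plus strand): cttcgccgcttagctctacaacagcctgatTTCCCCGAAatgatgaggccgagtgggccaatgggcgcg
The stretches of Ifit3 and Ifit3b were identical in 104 of 104 bases. The next stretches belong to Oasl1 and H2-K1, which departed from the other genes in the results, and hold neither motif as searched. An exact search misses elements written with other letters, so that the lack of a match does not show that a gene lacks the element.
Oasl1 (chr5:114923150-114923239, plus strand): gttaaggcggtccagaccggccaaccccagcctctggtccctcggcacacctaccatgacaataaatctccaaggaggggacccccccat
H2-K1 (chr17:34000348-34000437, minus strand): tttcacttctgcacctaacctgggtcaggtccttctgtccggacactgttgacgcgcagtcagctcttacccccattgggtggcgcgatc

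Across the 4 groups, the mean level was lowest in PT-KO+I/R for 33 of the 40 genes and highest in Ctrl for 27. Per kilobase of exon, the order of levels in Ctrl+I/R was led by B2m at 365 CPM per kb, H2-D1 at 79.1 and H2-K1 at 48.5, and closed by Mx1 at 0.447 and Oas3 at 0.187. The spread differed between groups, with a median coefficient of variation of 45.0% in Ctrl and 26.5% in PT-KO. After I/R it was 27.2% in the control and 15.1% in the knockout libraries. Ctrl library 1 was the highest of all 12 libraries for 28 of the 40 genes, and each PT-KO+I/R library was the lowest for 9 to 11. The Ctrl group is thus the least even of the 4, as the heat map of the genes by library shows.

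**Figure D1:**
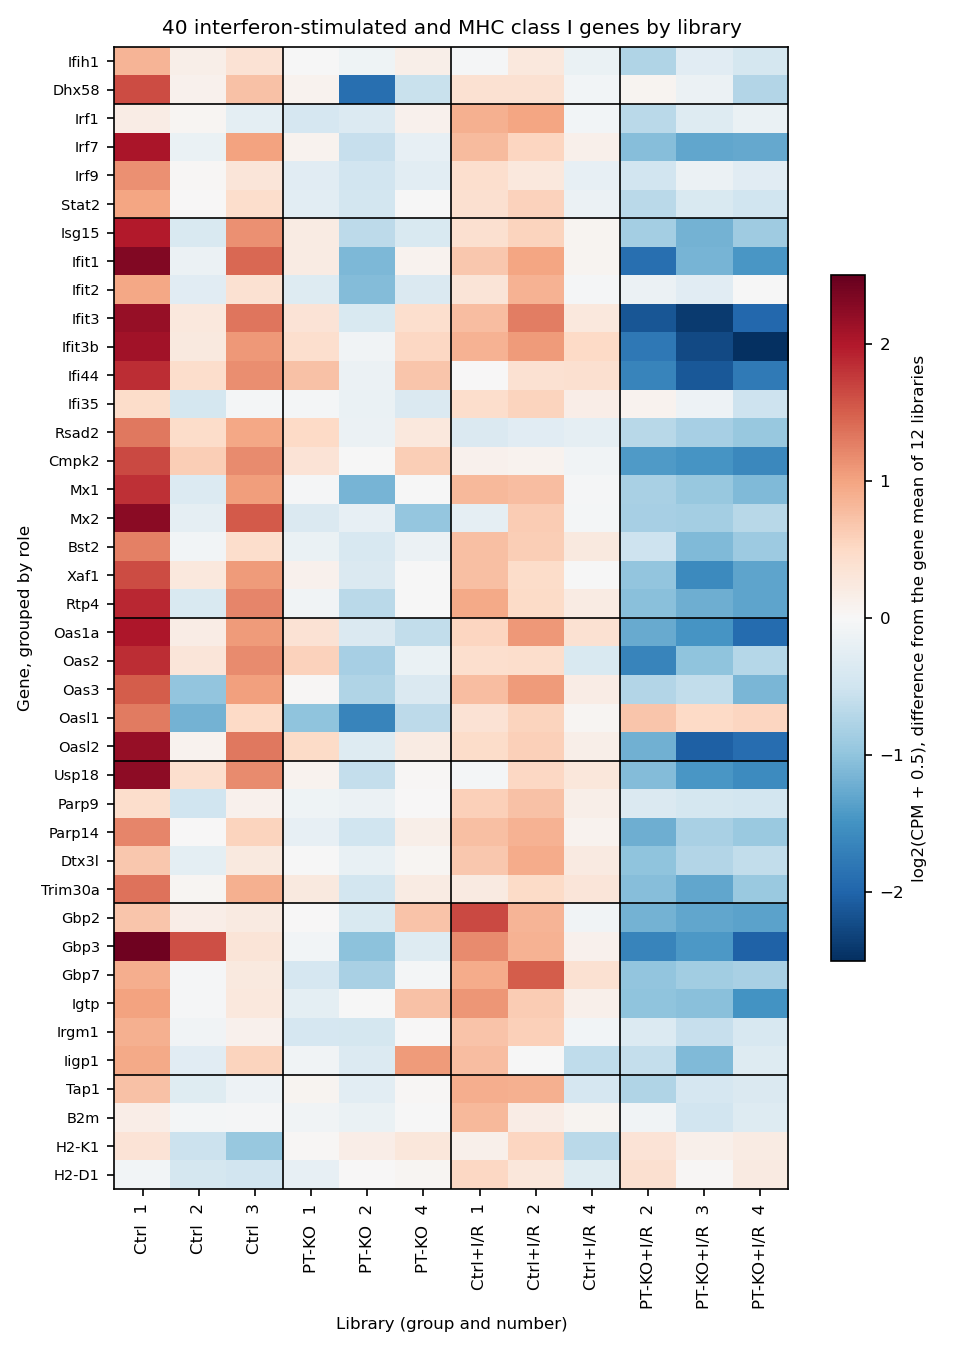
Heat map of the 40 genes (rows, grouped by role with black lines between roles) in 12 libraries (columns, grouped by treatment). Colour is the difference of log2(CPM + 0.5) from the mean of the 12 libraries for that gene, cut off at 2.5 either way. Ctrl library 1 is red for most genes, and the PT-KO+I/R libraries are blue for most genes, except Oasl1, H2-K1 and H2-D1.

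The knockout was compared with its control after I/R, where all 6 libraries were male. In PT-KO+I/R, 34 of the 40 genes fell and 0 rose relative to Ctrl+I/R, by the quasi-likelihood test of edgeR with Benjamini-Hochberg adjustment at 0.05. All 40 passed the filter on low counts, as did 15281 genes in all, of which 24.4% were called lower and 22.5% higher. The median log2 fold change was -1.56 over the 40 genes and -0.00489 over all genes tested. In 32 of the 40 genes every PT-KO+I/R library was below every Ctrl+I/R library, as for 29.1% of all genes tested. The 6 genes that were not called were Dhx58, Irf9, Oasl1, Iigp1, H2-K1 and H2-D1. The call held in each of the 6 fits that left out 1 library for 26 of the 34 genes, and was lost in at least 1 fit for Ifih1, Irf1, Ifit2, Ifi35, Mx2, Oas2, Tap1 and B2m. With library totals in place of TMM normalization the median of all genes moved to -0.21, and that of the 40 genes to -1.77.

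**Figure D2:**
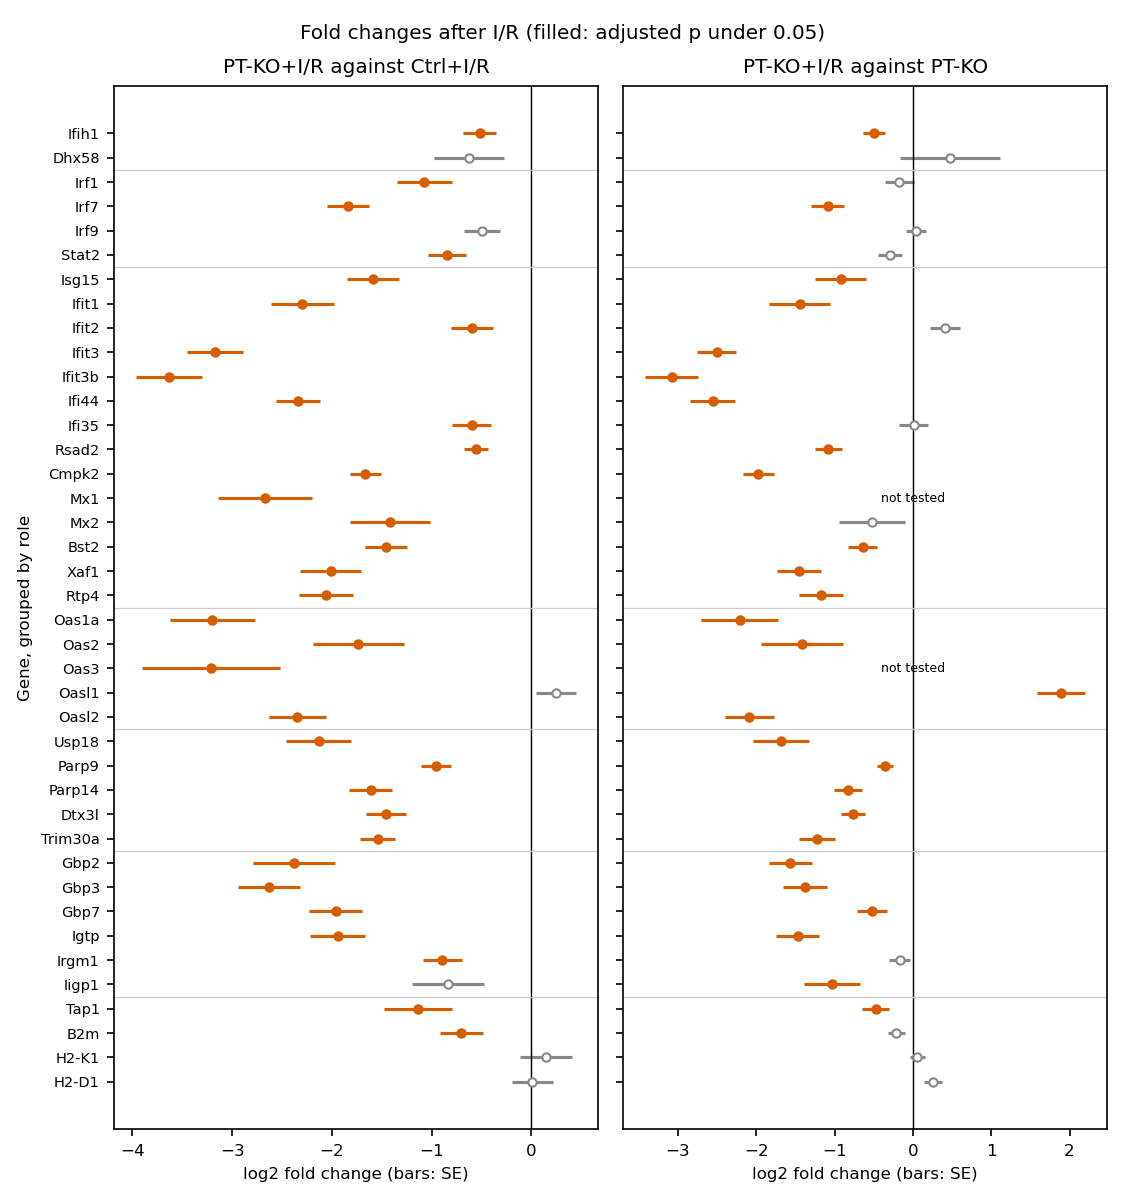
Log2 fold change of each of the 40 genes with its SE (bars) in PT-KO+I/R, relative to Ctrl+I/R (left) and relative to PT-KO (right). Filled points passed an adjusted p of 0.05 in edgeR. On the left 34 genes are filled, all below 0, and on the right 26 are filled below 0 and Oasl1 above 0, while Mx1 and Oas3 were not tested there.

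Among the sensors of viral RNA, Ifih1 (MDA5, which binds long double-stranded RNA) fell. Its level was 23.1, 28.2 and 20.8 CPM in Ctrl+I/R and 13.8, 19.3 and 17.3 CPM in PT-KO+I/R. The groups did not overlap, and the log2 fold change was -0.52 ± 0.17 (SE, n = 3 per group; edgeR adjusted p = 0.0342). Without I/R Ifih1 stood at 42.7, 26.1 and 30.4 CPM in Ctrl and 23.4, 21.6 and 25.9 CPM in PT-KO. Dhx58 (LGP2, a regulator of the other sensors) stood at 7.08, 2.14 and 3.54 CPM in Ctrl and 2.08, 0.161 and 1.16 CPM in PT-KO. It was at 2.68, 2.66 and 1.83 CPM in Ctrl+I/R and 2.05, 1.69 and 0.966 CPM in PT-KO+I/R, where the groups overlapped, with a log2 fold change of -0.63 ± 0.35 (edgeR adjusted p = 0.17).

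Of the 4 transcription factors 3 fell in PT-KO+I/R. Irf7, the interferon regulatory factor that amplifies type I interferon, fell most. It stood at 20.2, 16.8 and 12.6 CPM in Ctrl+I/R and at 5.21, 4.36 and 4.44 CPM in PT-KO+I/R. All knockout libraries were below all control libraries, and Irf7 was 3.58-fold lower (log2 -1.84 ± 0.21, edgeR adjusted p = 0.000543). Without I/R it was 48.8, 10.1 and 23.6 CPM in Ctrl and 12.2, 7.48 and 9.80 CPM in PT-KO. Irf1, a factor induced strongly by interferon gamma, stood at 34.2, 36.3 and 17.4 CPM in Ctrl+I/R and 11.2, 14.4 and 16.2 CPM in PT-KO+I/R. Its log2 fold change was -1.07 ± 0.27 (edgeR adjusted p = 0.0144), which became -0.96 and was no longer called once Ctrl+I/R library 1 was left out. Stat2, part of the complex that binds the ISRE, stood at 29.2, 33.1 and 19.7 CPM in Ctrl+I/R and 13.6, 16.8 and 15.3 CPM in PT-KO+I/R (log2 -0.85 ± 0.19, edgeR adjusted p = 0.0092). Irf9, the DNA-binding part of the same complex, had a log2 fold change of -0.49 ± 0.18 (edgeR adjusted p = 0.0534) and overlapping groups.

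All 14 antiviral effectors fell in PT-KO+I/R, with log2 fold changes from -0.55 for Rsad2 (viperin, which makes a chain-terminating nucleotide) to -3.63 for Ifit3b. Isg15, a ubiquitin-like protein that is attached to other proteins, stood at 4.95, 5.63 and 3.85 CPM in Ctrl+I/R and 1.79, 1.33 and 1.74 CPM in PT-KO+I/R. Its groups did not overlap, and it was 3.003-fold lower (log2 -1.59 ± 0.26, edgeR adjusted p = 0.00221). Ifit3b, of the family of IFIT proteins that bind foreign RNA, stood at 11.3, 12.9 and 8.65 CPM in Ctrl+I/R and 1.37, 0.845 and 0.515 CPM in PT-KO+I/R. It was 12.4-fold lower (log2 -3.63 ± 0.33, edgeR adjusted p = 0.000284), and its neighbour Ifit3 was 9.02-fold lower. Ifit3 and Ifit3b share 51.2% and 44.5% of their 50-base stretches of transcript with each other, so that reads between them may have been split by the counting and the 2 values are not independent. Ifit2 had the highest mean level of the effectors in CPM, at 35.2, 51.6 and 27.5 CPM in Ctrl+I/R and 25.1, 22.9 and 27.8 CPM in PT-KO+I/R. Its groups overlapped, and its call (log2 -0.60 ± 0.21, edgeR adjusted p = 0.0481) was lost in 5 of the 6 fits that left out 1 library, the exception being Ctrl+I/R library 4. Mx1, on counts of at most 95 in any library, fell by 2.67, Ifi44 by 2.34, Ifit1 by 2.30, Rtp4 by 2.06 and Xaf1 by 2.01 on the log2 scale. Cmpk2, a mitochondrial nucleotide kinase next to Rsad2 in the genome, fell by 1.66 and Bst2 (tetherin, which holds budding virus at the membrane) by 1.46.

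In the OAS family, whose members make or resemble the enzymes that make oligoadenylate on double-stranded RNA, 4 of the 5 genes fell in PT-KO+I/R. Oas3 stood at 1.38, 1.83 and 0.758 CPM in Ctrl+I/R and 0.171, 0.222 and 0 CPM in PT-KO+I/R. The log2 fold change was -3.21 ± 0.69 (edgeR adjusted p = 0.00717) on counts of at most 53 in any library. Oas1a fell by 3.20 ± 0.43 and Oas2 by 1.74 ± 0.46, and Oas1a shares 57.6% of its 50-base stretches with Oas1g. Oasl2 stood at 11.6, 12.9 and 9.35 CPM in Ctrl+I/R and 3.33, 1.65 and 1.87 CPM in PT-KO+I/R (log2 -2.35 ± 0.29, edgeR adjusted p = 0.000723). Oasl1, which lacks the enzyme activity and is known to restrain translation of Irf7, was the exception. It stood at 5.22, 6.05 and 4.11 CPM in Ctrl+I/R and 6.67, 5.78 and 5.92 CPM in PT-KO+I/R, overlapping groups with a log2 fold change of 0.25 ± 0.20 (edgeR adjusted p = 0.344).

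All 5 ubiquitin-like and ADP-ribose regulators fell. Usp18, which removes ISG15 and damps the type I receptor, stood at 2.81, 4.38 and 3.66 CPM in Ctrl+I/R and 1.11, 0.756 and 0.644 CPM in PT-KO+I/R (log2 -2.13 ± 0.32, edgeR adjusted p = 0.00168). Parp14, a mono-ADP-ribosyltransferase, stood at 47.2, 51.0 and 29.4 CPM in Ctrl+I/R and 11.7, 15.7 and 14.4 CPM in PT-KO+I/R (log2 -1.61 ± 0.22, edgeR adjusted p = 0.00103). Neither gene overlapped between the groups. Dtx3l, a ubiquitin ligase that pairs with PARP9, stood at 24.9, 30.04 and 18.3 CPM in Ctrl+I/R and 7.52, 9.11 and 9.98 CPM in PT-KO+I/R (log2 -1.46 ± 0.20, edgeR adjusted p = 0.00116). Parp9 fell by 0.95 ± 0.15 and Trim30a by 1.54 ± 0.18. Parp9 and Dtx3l lie head to head and share 458 exonic bases on opposite strands, and the strand setting of the counting is not given in the sources used here.

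Of the 6 interferon-inducible GTPases, which attack the vacuoles of intracellular pathogens, 5 fell. Gbp3 stood at 29.4, 23.5 and 13.5 CPM in Ctrl+I/R and 3.67, 4.31 and 2.70 CPM in PT-KO+I/R (log2 -2.63 ± 0.31, edgeR adjusted p = 0.000658). Gbp2 stood at 37.6, 21.5 and 11.1 CPM in Ctrl+I/R and 4.87, 4.45 and 4.31 CPM in PT-KO+I/R (log2 -2.38 ± 0.41, edgeR adjusted p = 0.00273). The knockout libraries of Gbp2 lay close together, while the control libraries spread widely, with no overlap. Irgm1, the most abundant of the role in CPM and a regulator of the other GTPases, stood at 110, 101 and 63.2 CPM in Ctrl+I/R and 52.8, 44.8 and 50.7 CPM in PT-KO+I/R (log2 -0.89 ± 0.20, edgeR adjusted p = 0.00753). Gbp7 fell by 1.96 and Igtp by 1.94 on the log2 scale, and Iigp1 had a value of -0.83 ± 0.36 (edgeR adjusted p = 0.0899).

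The MHC class I genes divided. Tap1, a subunit of the peptide transporter of the endoplasmic reticulum, stood at 21.1, 20.8 and 8.09 CPM in Ctrl+I/R and 6.32, 8.09 and 8.37 CPM in PT-KO+I/R. Its groups overlapped through Ctrl+I/R library 4, and its call (log2 -1.13 ± 0.34, edgeR adjusted p = 0.0271) held in 1 of the 6 fits with a library left out, the fit without that library. B2m, the light chain common to class I molecules, stood at 420, 271 and 251 CPM in Ctrl+I/R and 222, 170 and 190 CPM in PT-KO+I/R. It fell by 0.70 ± 0.21 on the log2 scale (edgeR adjusted p = 0.027). The call was lost without Ctrl+I/R library 1, at -0.44, and without PT-KO+I/R library 3 or 4. The heavy chains, which present the peptide, were not called. H2-K1 stood at 147, 196 and 84.6 CPM in Ctrl+I/R and 172, 146 and 155 CPM in PT-KO+I/R (log2 0.15 ± 0.26, edgeR adjusted p = 0.67). H2-D1 stood at 253, 215 and 143 CPM in Ctrl+I/R and 233, 180 and 206 CPM in PT-KO+I/R (log2 0.01 ± 0.20, edgeR adjusted p = 0.972). Both signs are negative with library totals, at -0.07 for H2-K1 and -0.20 for H2-D1, and the genes share 9.63% and 12.8% of their 50-base stretches with other genes.

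**Figure D3:**
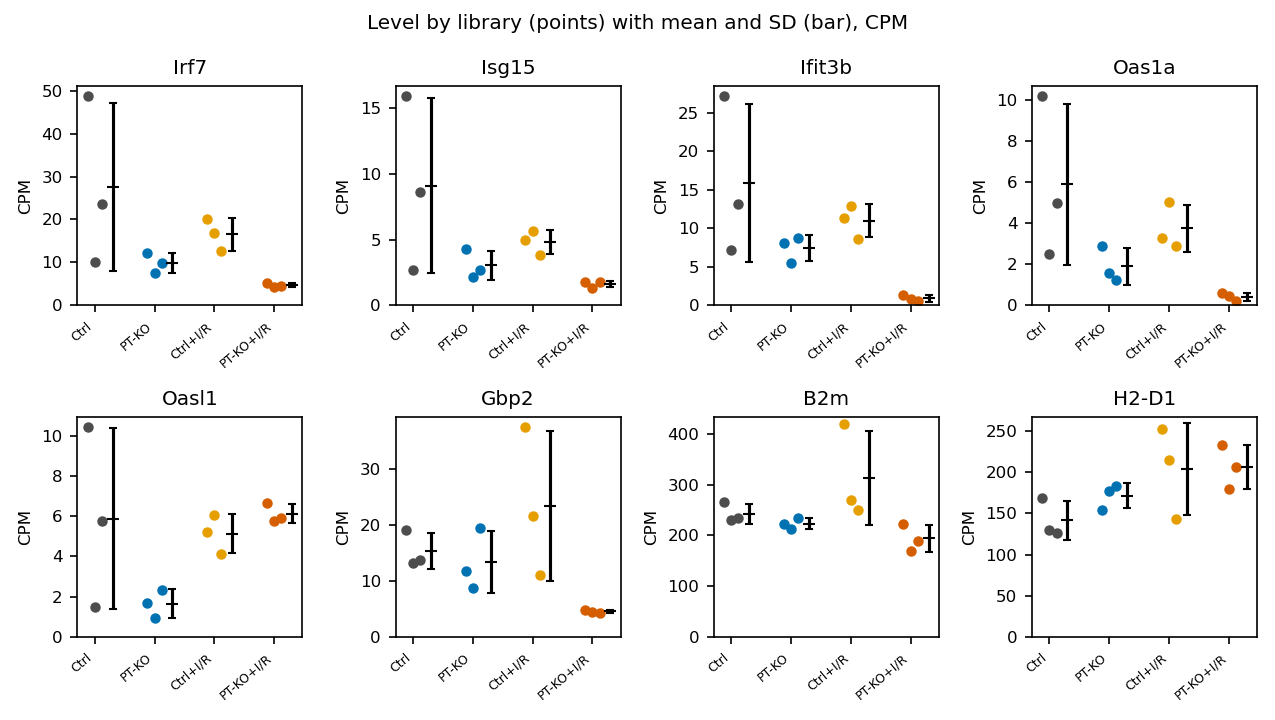
Level in CPM (vertical axes from 0) of 8 genes in the 4 groups, with 1 point per library and the mean with its SD beside them. Irf7, Isg15, Ifit3b, Oas1a and Gbp2 are lowest in PT-KO+I/R, whereas Oasl1 and H2-D1 overlap Ctrl+I/R, and the Ctrl points are far apart for Irf7, Isg15, Ifit3b, Oas1a and Oasl1.

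Immune cell markers other than those of neutrophils also had their lowest mean sums in PT-KO+I/R, and in bulk RNA fewer cells of a type and less RNA per cell cannot be told apart. The 6 leukocyte markers, all detected in every group, summed to 33.9 to 41.9 CPM in Ctrl and 34.2 to 43.4 CPM in PT-KO. After I/R they summed to 68.5 to 152 CPM in the control and 28.5 to 35.3 CPM in the knockout libraries. The 9 macrophage markers summed to 144 to 283 CPM in Ctrl+I/R and 73.7 to 81.3 CPM in PT-KO+I/R, with 7 of them called lower and Cd68, a lysosomal protein, called higher. The 7 dendritic cell markers summed to 18.1 to 45.3 and 8.46 to 10.3 CPM. The 9 T cell markers summed to 8.78 to 24.8 CPM in Ctrl+I/R and 0.769 to 2.77 CPM in PT-KO+I/R. The 6 NK cell markers summed to 1.71 to 9.95 CPM in Ctrl+I/R and 0.258 to 0.342 CPM in PT-KO+I/R, where 4 of the 6 had a count. The 5 B cell markers summed to 1.20 to 3.02 CPM and 0 to 0.400 CPM, being at 0 in PT-KO+I/R library 2. In the other direction, the 7 neutrophil markers summed to 10.7 to 47.2 CPM in Ctrl+I/R and 58.5 to 88.0 CPM in PT-KO+I/R. The 7 endothelial markers summed to 364 to 412 and 447 to 476 CPM, but were mixed, with 4 called higher while Tie1 (-0.72) and Tek (-1.28), receptor kinases of the endothelium, were called lower. The proximal tubule markers summed to 6070 to 11320 CPM in Ctrl+I/R and 5034 to 5744 CPM in PT-KO+I/R, and 4 markers of injured tubule to 562 to 2657 and 4814 to 6326 CPM. The part of these cell types in the fall of the 40 genes was not tested.

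**Figure D4:**
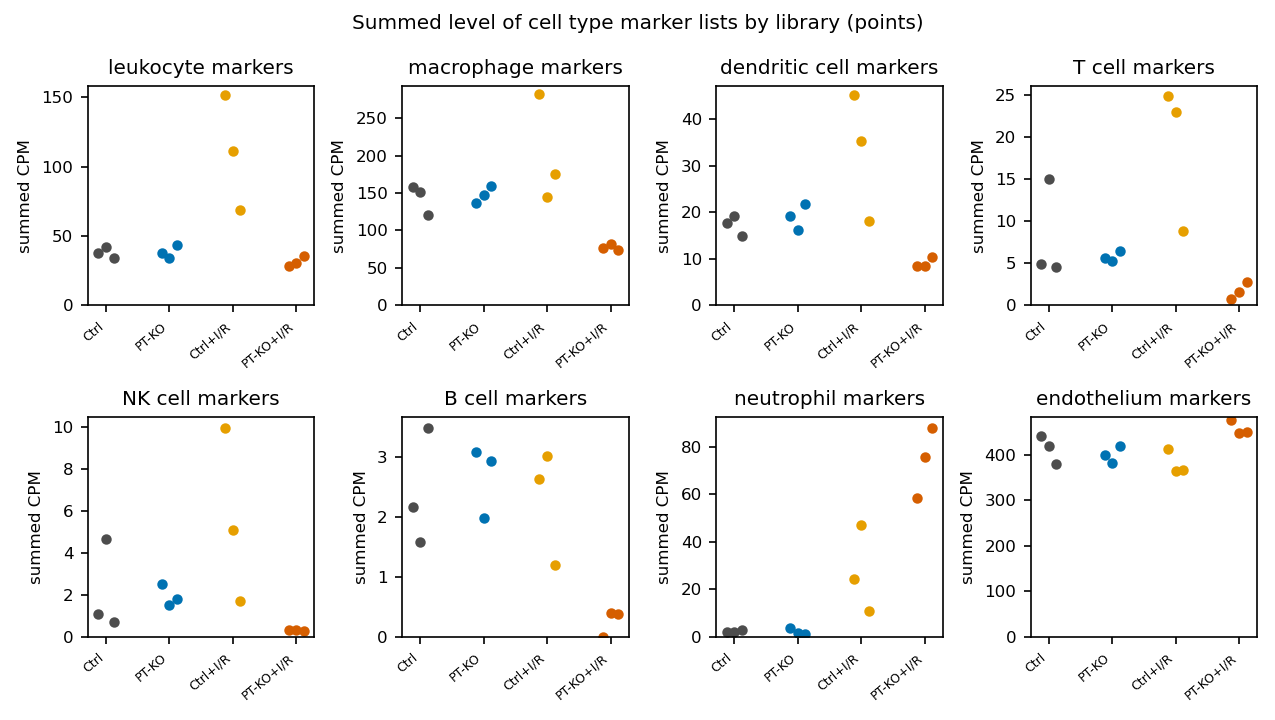
Summed CPM (vertical axes from 0) of 8 lists of cell type markers, with 1 point per library in the 4 groups. All lists of immune cells but neutrophils have their lowest mean in PT-KO+I/R, with leukocyte points that overlap those of Ctrl and PT-KO, and the neutrophil sum is 58.5 to 88.0 CPM there.

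I/R was then compared within the knockout, PT-KO+I/R against PT-KO, which shares the PT-KO+I/R libraries with the comparison above. Of the 40 genes 38 passed the count filter, and 26 fell and 1 rose. Of all 15155 genes tested, 32.7% were called lower and 32.9% higher by edgeR. The median log2 fold change was -0.876 over the 38 genes and 0.0114 over all genes. The groups did not overlap in the lower direction for 23 of the genes, against 35% of all genes tested. The largest falls were Ifit3b (-3.08 ± 0.34), Ifi44 (-2.56 ± 0.28), Ifit3 (-2.502 ± 0.25) and Oas1a (-2.21 ± 0.49), on the log2 scale. The call held in each of the 6 fits that left out 1 library for 19 of the 27 called genes. In the fit to all 12 libraries, with or without sex, 17 of the 40 were called, 16 of them lower, where 63.2% and 62.1% of all genes were called. The calls of Irf7, Isg15, Ifit1, Bst2, Rtp4, Oas2, Parp9, Gbp7, Iigp1 and Tap1 were lost in both of these fits.

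Oasl1 rose with I/R in the knockout. Its level in PT-KO was 1.70, 0.914 and 2.33 CPM, and the PT-KO+I/R libraries had 6.67, 5.78 and 5.92 CPM. The groups did not overlap and the log2 fold change was 1.89 ± 0.31 (edgeR adjusted p = 0.000405), while its relative Oasl2 fell by 2.09 ± 0.31. Ifit2 was also higher in every PT-KO+I/R library, at 22.2, 13.0 and 21.6 CPM in PT-KO, without passing the test (log2 0.41 ± 0.19, edgeR adjusted p = 0.0841). The genes that fell included Irf7 (-1.09), Isg15 (-0.92), Usp18 (-1.68), Gbp2 (-1.57) and Igtp (-1.47). The transcription factors Irf1 (-0.18), Irf9 (0.04) and Stat2 (-0.29) were not called, nor were B2m (-0.21), H2-K1 (0.06) and H2-D1 (0.26). Tap1 fell by 0.47 ± 0.17, a call that was lost in 4 of the 6 fits with a library left out and with library totals, and that of Isg15 was lost in 3 of the 6.

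I/R was also compared in control mice. In Ctrl+I/R against Ctrl, Rsad2 and Cmpk2 fell and 0 of the 40 rose by edgeR, where 7.97% of all 15567 genes tested were called lower and 11.4% higher. Rsad2 stood at 64.6, 35.4 and 50.5 CPM in Ctrl and 19.7, 20.97 and 21.8 CPM in Ctrl+I/R (log2 -1.26 ± 0.21, edgeR adjusted p = 0.0122). Cmpk2 stood at 40.2, 19.6 and 29.1 CPM in Ctrl and 13.6, 13.4 and 11.7 CPM in Ctrl+I/R (log2 -1.19 ± 0.24, edgeR adjusted p = 0.0214), and its call was lost without Ctrl library 1 (-0.90) and without Ctrl+I/R library 1 (-1.24). The groups of both genes did not overlap, and their starts lie on opposite strands close to each other on chromosome 12. The median over the 40 genes was -0.42, against -0.0115 over all genes, and it was 0.06 without Ctrl library 1. The Ctrl+I/R libraries were all male and 2 Ctrl libraries female, so that sex and I/R are confounded in part. The fit to all 12 libraries with sex as a covariate sets the Ctrl level by library 3 alone. Its median was -0.303, with -1.28 for Rsad2 and -1.17 for Cmpk2. On the male libraries alone edgeR called 0 of the 40 genes and 0 of 16595 genes in all, with 8 of the 40 at an unadjusted p under 0.05, against 17.8% of all genes, and the values were -1.26 for Rsad2 and -1.15 for Cmpk2 (edgeR adjusted p = 0.161 for both). Without Ctrl+I/R library 4, 5 of the 40 were called, 3 of them higher, against 25% of all genes. All 4 MHC class I genes had values above 0 (Tap1 0.43, B2m 0.38, H2-K1 0.36, H2-D1 0.53) and none was called. With sex as a covariate H2-K1 was 1.04 and Tap1 0.75, again not called.

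Without I/R, edgeR called 0 of the 40 genes, and 0 of all 15291 genes tested (0%), between PT-KO and Ctrl. An unadjusted p under 0.05 was reached by 27 of the 40 genes, against 16.8% of all genes, and DESeq2 called 12 of the 40, against 3% of all genes. All PT-KO libraries were male, so that sex and knockout are confounded in part. The number at an unadjusted p under 0.05 was 13 with sex as a covariate in the fit to all 12 libraries (3.77% of all genes), 28 on the male libraries alone (5.98%), 12 without Ctrl library 1 (9.47%) and 11 without PT-KO library 2 (9.58%). The median log2 fold change was -0.909 over the 40 genes and -0.0115 over all genes, with 38 of the 40 below 0. The exceptions were H2-K1, at 172, 93.1 and 69.4 CPM in Ctrl and 138, 151 and 163 CPM in PT-KO (log2 0.44 ± 0.29), and H2-D1, at 169, 130 and 126 CPM in Ctrl and 154, 178 and 183 CPM in PT-KO (log2 0.27 ± 0.13). With sex as a covariate they were 1.12 and 0.44, and were not called. The groups did not overlap for 11 of the 40 genes, all lower in PT-KO, against 11.2% of all genes lower. The median was -0.521 without Ctrl library 1, -1.14 without Ctrl library 2 and -0.977 without Ctrl library 3, without which 3 of the 40 genes were called, against 12.4% of all genes. It was -0.768 on the male libraries alone, where edgeR called 0 of the 40.

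The interaction of knockout and I/R, tested on all 12 libraries, asks whether the difference between PT-KO and Ctrl changed with I/R. Of the 40 genes 7 were called by edgeR, of which 6 were lower and 1 higher, where 16.4% of all 16168 genes tested were called lower and 14.3% higher. In this fit the 40 genes were thus called no more often than genes at large. The number moved with single libraries, to 13 of the 40, all lower, without Ctrl library 1, where 2200 of 16571 genes were called lower. Oasl1 had an interaction of 2.10 ± 0.73 on the log2 scale, with a difference of PT-KO from Ctrl of -1.85 without I/R and 0.25 after it. Ifit3b (-2.54 ± 0.64), Gbp2 (-2.17 ± 0.55), Ifit3 (-1.86 ± 0.61), Igtp (-1.67 ± 0.48), Ifi44 (-1.53 ± 0.49) and Dtx3l (-1.13 ± 0.32) had larger deficits after I/R than without it. Gbp2 stood at 19.1, 13.2 and 13.7 CPM in Ctrl and 11.8, 8.82 and 19.5 CPM in PT-KO, where the groups overlapped. With sex as a covariate 4 genes were called, all lower (Ifit3b, Gbp2, Gbp3 and Igtp), against 20% of all genes. Ifit3b, Gbp2 and Dtx3l were called in each of the 12 fits that left out 1 library. The call was lost in 9 of the 12 for Oasl1, in 8 for Ifit3, in 7 for Ifi44 and in 3 for Igtp, and for Oasl1 also with library totals. On the male libraries alone 6 of the 7 genes were called, the exception being Gbp2 (-2.34, edgeR adjusted p = 0.0565), against 14.4% of all genes. Isg15 had an interaction of 0.00 and Irf7 of -0.34, neither called.

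Upstream of these genes, the interferons themselves were at the edge of detection. Of 20 interferon genes 16 had 0 counts in all 12 libraries, which allows up to 3 counts in each, and Ifnab, Ifnk, Ifnz and Ifng had at most 2 counts in any library, so that no difference between groups was detectable at this depth. The receptors were well detected. Ifngr1, the ligand-binding chain of the interferon gamma receptor, stood at 50.9, 63.3 and 46.4 CPM in Ctrl+I/R and 119, 105 and 131 CPM in PT-KO+I/R (log2 1.14 ± 0.14, edgeR adjusted p = 0.000721). Ifngr1 was 31.2, 28.4 and 28.7 CPM in Ctrl and 37.8, 36.0 and 28.6 CPM in PT-KO, and rose with I/R by 0.87 in Ctrl and 1.78 in PT-KO on the log2 scale. Ifnlr1, of the type III receptor, stood at 5.80, 6.78 and 3.35 CPM in Ctrl+I/R and 9.74, 10.5 and 11.3 CPM in PT-KO+I/R (log2 0.98 ± 0.25, edgeR adjusted p = 0.0145). Ifngr2 (0.50), Ifnar1 (0.10), Ifnar2 (-0.22) and Il10rb (-0.31) were not called in the same comparison.

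Of 14 tested genes of nucleic acid sensing 7 fell and 2 rose in PT-KO+I/R relative to Ctrl+I/R, against 24.4% lower and 22.5% higher over all genes tested, with the largest falls in Tlr9 (-2.84), Cgas (-2.82, the cytosolic DNA sensor) and Zbp1 (-2.15, a sensor of left-handed nucleic acid). Of 42 further interferon-stimulated genes tested 27 fell and 4 rose, and of 7 further GTPases all fell, led by Tgtp1 (-4.21 ± 0.62) and Gbp6 (-4.15 ± 0.69). Tgtp1 stood at 11.9, 6.99 and 2.97 CPM in Ctrl+I/R and 0.342, 0.222 and 0.644 CPM in PT-KO+I/R.

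In antigen processing for class I, 8 of 13 genes fell and 0 rose, against the same shares of all genes tested. The subunits of the immunoproteasome, which interferon exchanges for the constitutive ones, fell. Psmb9 stood at 7.09, 4.17 and 3.66 CPM in Ctrl+I/R and 1.28, 0.578 and 0.515 CPM in PT-KO+I/R (log2 -2.72 ± 0.43, edgeR adjusted p = 0.00201), while Psmb8 fell by 1.504 ± 0.29 and Psmb10 by 0.99 ± 0.20. The constitutive counterparts rose, Psmb5 by 0.51 ± 0.09, Psmb6 by 0.39 ± 0.09 and Psmb7 by 0.49 ± 0.12, of which Psmb5 alone was called with library totals. Nlrc5, the transactivator of class I genes, stood at 11.7, 8.501 and 3.41 CPM in Ctrl+I/R and 2.05, 2.62 and 2.96 CPM in PT-KO+I/R (log2 -1.63 ± 0.42, edgeR adjusted p = 0.0152), and its call was lost in 3 of the 6 fits that left out 1 library. Among 13 other class I and class I-like heavy chains 4 fell and 2 rose, against 24.4% and 22.5% of all genes tested, with the largest values in H2-T24 (-3.88), H2-Q7 (-2.40) and Cd1d1 (2.04, which presents lipids to NKT cells).

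**Figure D5:**
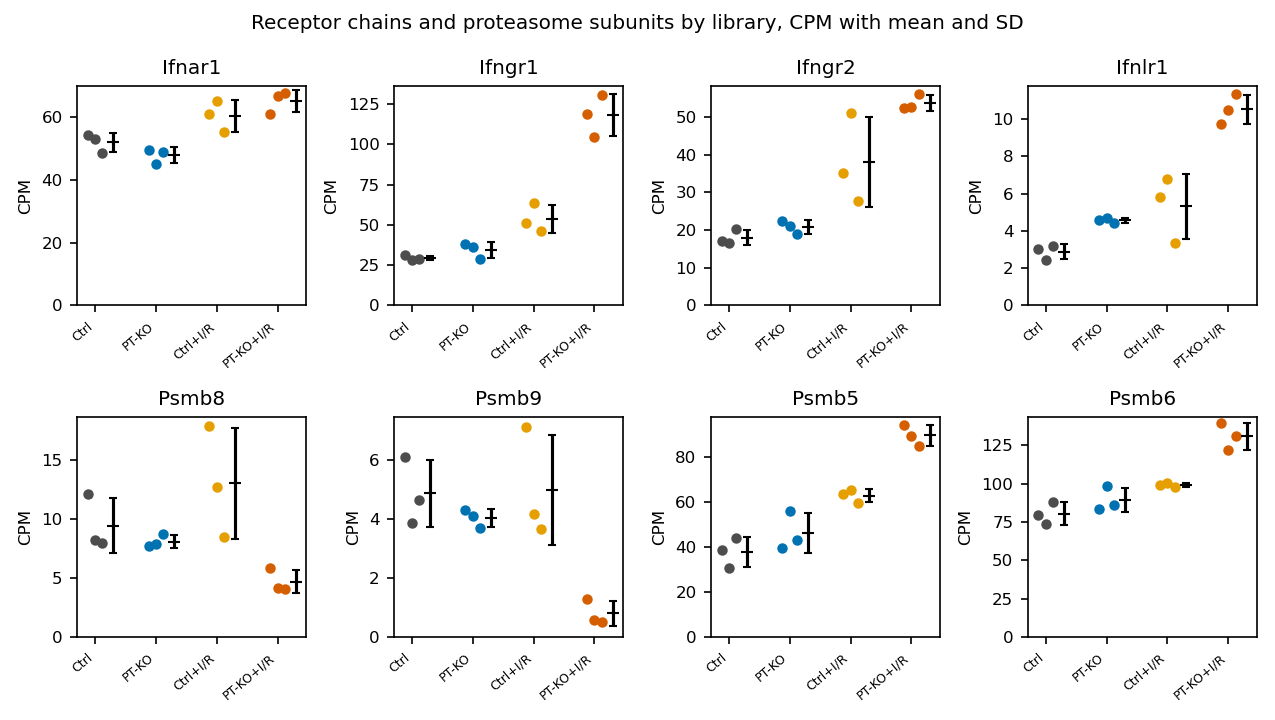
Level in CPM (vertical axes from 0) of 4 receptor chains and 4 proteasome subunits in the 4 groups, with 1 point per library and the mean with its SD. Ifngr1, Ifnlr1, Psmb5 and Psmb6 are highest in PT-KO+I/R, whereas Psmb8 and Psmb9 are lowest there.

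Genes below a limit on shared sequence were also among those called. Of the 40 genes 10 share at least 5% of their 50-base stretches with another gene. Of the other 30 genes 26 were called lower in the knockout after I/R, relative to its control, against 24.4% of all genes tested. The part of shared sequence in the calls was not tested. Of the 17 genes with an ISRE core in their window 17 were called lower, with a median log2 fold change of -1.94. Of the 14 with a window and no exact match to the ISRE core 10 were called lower, with a median of -1.10. Both stand against the 24.4% of all genes tested, and genes without a match may hold the element in other letters. This is a description of genes that were chosen together, and no test was made of the difference. Oasl1, H2-K1, H2-D1 and Irf9 were the 4 genes with a window and no call.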

How the data were processed

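Counts per gene were used for 12 mouse kidney libraries. Total RNA was isolated with TRIzol for Illumina sequencing, and the authors deposited 1 table of raw read counts for 55487 Ensembl genes, of which 55141 have a symbol in GENCODE M21. The submitters' processing notes name HISAT2 2.0.4 and mm10, and the counting program, annotation and strand setting are not given in the sources used here. Totals were 12165089 to 23123693 counts per library, and scatter between replicates was 8.21 to 66.3 times counting error, so that the number of libraries limits the precision. Nothing in the labels states that replicates are separate mice, and p-values measure the spread between these libraries.

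The whole table was fitted in edgeR 4.0.16 (R 4.3.3), after filterByExpr and TMM normalization, by its quasi-likelihood test, on the 6 libraries of each comparison or, for the interaction, on all 12. Calls had a Benjamini-Hochberg adjusted p under 0.05. The SE was the log2 fold change divided by the square root of the F statistic. The levels given are CPM, counts scaled to the library total multiplied by the TMM factor from all 12 libraries. The code was tested on simulated data with known changes. Alternatives were DESeq2 1.42.0, library totals, 1 fit to all 12 libraries, a filter of 10 counts in each library or none, sex as a covariate, the replicate number as a block and leaving out each library. A fit to the male libraries alone was added after the data had been seen.

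The genes, the lists beside them and the sex covariate were chosen with earlier results of these data known, so that no test over a list was made. Every one of the 40 genes could be named, and values per library were given in each role for the gene with the highest mean CPM, the largest fold change in PT-KO+I/R relative to Ctrl+I/R and the largest interaction, and for any gene called against its role. Added to these were H2-K1, H2-D1, B2m, Isg15, Irf7, Gfer, the interferon ligands and receptors, Nlrc5 and the leading called genes of each list. The proteasome subunits Psmb5 to Psmb7 and other values outside the rule were chosen after they had been seen. Values of 1 further gene named by the rule are not reported here.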

Additional observations from a re-analysis of the deposited data

Results flagged for a closer look

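In 7 of the 40 genes the difference between PT-KO and Ctrl changed with I/R by the interaction test of edgeR over 16168 genes, at an adjusted p under 0.05, against 30.6% of all genes. For 4 of the 7 the call was lost in at least 1 of the 12 fits that left out a library. On the log2 scale, the interaction was 2.10 for Oasl1, where the difference of PT-KO from Ctrl was -1.85 without I/R and 0.25 after I/R. It was -2.54 for Ifit3b, -2.17 for Gbp2, -1.86 for Ifit3, -1.67 for Igtp, -1.53 for Ifi44 and -1.13 for Dtx3l. The adjusted p ranged from 0.0112 for Ifit3b to 0.0452 for Oasl1. All 7 use the Ctrl libraries, of which 2 were female. With sex as a covariate the value was 2.06 for Oasl1 and -2.81 for Ifit3b, and of the 7 genes Ifit3b, Gbp2 and Igtp were called, against 20% of all genes.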

How the results depend on the processing

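In PT-KO+I/R relative to Ctrl+I/R, the number of the 40 genes called was 30 to 36 under DESeq2, no count filter, library totals and the fits to all 12 libraries, against 34, and 29 of the 34 tested with at least 10 counts in every library. These fits called 26.9% to 52.4% of all genes, and with 1 library left out it was 27 to 36 (31% to 48% of all genes), with medians of -1.68 to -1.45. With the replicate number as a block it was 18, against 11% of all genes. Residuals of the 12 pairs of same-numbered libraries had a median correlation of -0.0306 (-0.238 to 0.264). These residuals were centred within groups of 3 libraries, so that they cannot decide whether same-numbered libraries were paired. The block also called 25 in PT-KO against Ctrl (9.01% of all genes), 6 in Ctrl+I/R against Ctrl (23.2%) and 0 for the interaction (19.9%). In PT-KO+I/R against PT-KO the number was 17 in the fit to all 12 libraries, with or without sex (63.2% and 62.1% of all genes), and 21 to 29 with 1 library left out (58.7% to 65.6%, medians -1.13 to -0.763). In Ctrl+I/R against Ctrl it was 6 with DESeq2 (26% of all genes), 4 without a count filter (12.7%), 4 in the fit to all 12 (30.5%) and 1 to 5 with 1 library left out (2.39% to 25%, medians -0.679 to 0.0577). On the male libraries alone, a fit chosen after seeing the data, it was 0. Leaving out Ctrl+I/R library 4 gave 5 (25%), of which 3 were higher, the block also had 3 higher, and leaving out library 1 of either group gave 1. In PT-KO against Ctrl it was 12 with DESeq2 (3%), 10 without a count filter (1.47%) and 0 to 3 with 1 library left out (0% to 12.4%, medians -1.14 to -0.521). The interaction had 4 with sex (20%) and 3 to 13 with 1 library left out (21.7% to 33.2%, medians -1.03 to -0.325), with 13 without Ctrl library 1, 4 without Ctrl library 3, Ctrl+I/R library 1, PT-KO library 1 or 4 or PT-KO+I/R library 3, and 3 without PT-KO+I/R library 4. The causes were not tested. Oas3 and Mx1 had the lowest mean levels over the 12 libraries and the widest errors in PT-KO+I/R relative to Ctrl+I/R, and 3 libraries per group limit all comparisons.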

Other observations

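Gbp3 separated the Ctrl libraries by sex more than other GTPases did. It stood at 69.9 and 39.7 CPM in the Ctrl libraries 1 and 2, which were female, and at 15.9 CPM in Ctrl library 3, which was male, while the PT-KO libraries had 11.97, 5.97 and 9.99 CPM. Its difference of PT-KO from Ctrl was -2.18 ± 0.50 on the log2 scale, and -0.78 with sex as a covariate in the fit to all 12 libraries. Neither value was called, and the difference between sexes rests on 2 female libraries and was not tested.

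The chemokine Cxcl10, which draws T cells and is induced by interferon gamma, moved unlike most of the 40 genes. It rose with I/R in both genotypes, by 1.91 ± 0.35 in control and 1.14 ± 0.42 in knockout mice on the log2 scale (edgeR adjusted p = 0.0165 and 0.0345). It stood at 15.8, 21.9 and 9.79 CPM in Ctrl+I/R and 2.56, 8.76 and 6.31 CPM in PT-KO+I/R, where it fell by 1.40 ± 0.42 (edgeR adjusted p = 0.0275), a call that was lost in 3 of the 6 fits with 1 library left out. Cxcl9, a related chemokine, had 2.46, 1.40 and 2.08 CPM in the PT-KO libraries and 0.171, 0.0445 and 0.129 CPM in PT-KO+I/R, and its fall with I/R in the knockout was 4.18 ± 0.52 on the log2 scale. Both genes were chosen after their values had been seen.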
